A study of Mus musculus with 9 samples.

Results

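Double-strand break repair and damage signalling genes were described as a set of 56 genes, listed by name: genes of homologous recombination, the Fanconi pathway, end joining and the damage kinases. All 56 were found among the 56691 genes of the deposited table, with 0 symbols on more than 1 row, and all 56 passed the filter on low counts. RNA of NIH/3T3 cells, an immortalised mouse embryonic fibroblast line whose genotype is labelled WT, was sequenced in 9 libraries. The groups were cells given UVA (10 J/cm2) together with α-arbutin, a glucoside of hydroquinone (3 libraries, called co-treated), cells given UVA (10 J/cm2) without it (3 libraries), and control cells given neither (3 libraries). All groups were the same line in the same serum-containing medium. The sources used here give neither the α-arbutin dose, its timing relative to UVA and the time to harvest, nor whether each library is a culture of its own, so p-values measure only the spread between these libraries, which may be technical. There was no group given α-arbutin without UVA. Per its design text, the study asked whether α-arbutin protects the cells from UVA damage, with DNA repair among its interests.

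A double-strand break is sensed by the MRN complex (Mre11a, Rad50, Nbn), which activates the kinase ATM, and by the Ku proteins (Xrcc5, Xrcc6), which recruit DNA-PKcs (Prkdc) for direct end joining. Where ends are resected, BRCA1, PALB2 and BRCA2 prepare the single strand for pairing with the sister chromatid, which serves as template, so that this route belongs to S and G2 phase. The Fanconi proteins act at crosslinked DNA and stalled forks and hand over to recombination, while ATR, CHK1 and CHK2 signal to the cell cycle. UVA acts on DNA in part through photosensitised oxidants, and its oxidised bases and single-strand breaks can become breaks of both strands at replication forks. Most control of these pathways is exerted on proteins, by phosphorylation and ubiquitination, which RNA levels do not show.

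The promoter stretches of 4 genes are shown because their RNA differed between UVA and control libraries in the test below whichever 1 library was left out, and because the RefSeq promoter table (assembly GRCm38.p6) holds them. Of the 56 genes, 44 had an entry, with 48 start sites in all; the others were Fancd2, H2ax, Nbn, Poll, Prkdc, Rad50, Rad51d, Rad54b, Rbbp8, Rif1, Tdp2 and Xrcc2. Each sequence is the 250 bases upstream of the annotated start, read 5′ to 3′ on the gene's strand. Capitals mark letters of 3 short motifs searched on both strands: an E2F-type site (TTTCCCGC, TTTGCCGC, TTTGGCGC or TTTCGCGC), a CCAAT box (CCAAT) and a GC box (GGGCGG). The positions are on GRCm38.p6 and are not interchangeable with the mm39 positions of the count table given below.
Fancg, chr4:43010302-43010551, minus strand: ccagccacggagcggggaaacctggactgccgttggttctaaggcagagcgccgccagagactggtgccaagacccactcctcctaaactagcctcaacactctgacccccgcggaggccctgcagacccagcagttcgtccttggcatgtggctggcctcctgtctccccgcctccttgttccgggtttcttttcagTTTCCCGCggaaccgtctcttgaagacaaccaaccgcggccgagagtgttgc
Rad51b, most upstream start, chr12:79297032-79297281, plus strand: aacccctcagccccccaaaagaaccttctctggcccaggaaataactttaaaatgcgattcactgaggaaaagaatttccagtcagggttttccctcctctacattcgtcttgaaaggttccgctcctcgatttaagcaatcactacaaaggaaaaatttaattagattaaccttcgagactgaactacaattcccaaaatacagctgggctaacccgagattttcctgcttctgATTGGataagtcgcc
Rad51c, upstream start, chr11:87404955-87405204, minus strand: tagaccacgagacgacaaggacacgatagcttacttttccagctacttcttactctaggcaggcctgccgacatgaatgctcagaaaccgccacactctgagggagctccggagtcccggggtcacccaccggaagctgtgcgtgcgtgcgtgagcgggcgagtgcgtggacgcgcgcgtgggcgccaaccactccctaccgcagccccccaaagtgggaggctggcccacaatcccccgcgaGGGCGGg
Rnf168, chr16:32277211-32277460, plus strand: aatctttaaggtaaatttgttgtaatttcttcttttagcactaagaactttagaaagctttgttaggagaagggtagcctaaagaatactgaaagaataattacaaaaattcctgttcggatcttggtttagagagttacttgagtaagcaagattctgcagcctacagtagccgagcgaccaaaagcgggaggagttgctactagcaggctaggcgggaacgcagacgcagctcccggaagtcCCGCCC
Fancg held the E2F letters, Rad51b a CCAAT box read on the other strand, and Rad51c and Rnf168 a GC box at the downstream end. E2F letters occurred in 7 of the 48 windows of the repair genes (14.6%), those of Bard1, Brca2, Chek2, Fancg, Mdc1, Topbp1 and Xrcc6, against 3.24% of 12535 windows of tested genes and 1.86% of all 32851 windows of that length. CCAAT boxes were in 50% of the repair genes' windows, against 36.3% for tested genes and 33.8% for all windows. GC boxes were in 62.5%, against 56.8% and 32.7%. The letters TTTGAA, a cell cycle element (CHR), were in 8.33%, against 10.8% and 16%, and the p53 consensus motif was in 0%, against 0.0399% and 0.0639%. These are matches of letters in a short window and say nothing of binding.

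All 56 genes were detected, most at moderate levels and a few at low ones. Levels are given as FPKM, the authors' count scaled to exon length and to the library's total, which corrects for length and so allows genes to be compared. The median over the 56 genes of the control mean was 5.29 FPKM, 30 genes were over 5 FPKM, and 2 were under 1 FPKM. H2ax, encoding the histone variant that is phosphorylated around breaks, was the highest at 36.1 ± 1.19 FPKM in control libraries (SD, n = 3), followed by Topbp1, which activates ATR, at 26.5 ± 0.457 FPKM, and by Xrcc5, encoding Ku80, at 22.5 ± 0.976 FPKM. The lowest was Rnf8, encoding the first ubiquitin ligase to act at breaks, at 0.713 ± 0.0577 FPKM. Rnf168, encoding the ligase that acts next, stood at 21.6 ± 0.509 FPKM. Together the 56 genes took 0.234 to 0.245% of the counts of a library. Their summed level was 2416 to 2454 counts per 1e6 counts (CPM) in co-treated libraries, 2356 to 2424 CPM in UVA libraries and 2412 to 2439 CPM in control libraries, so the groups overlapped.

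**Figure D1:**
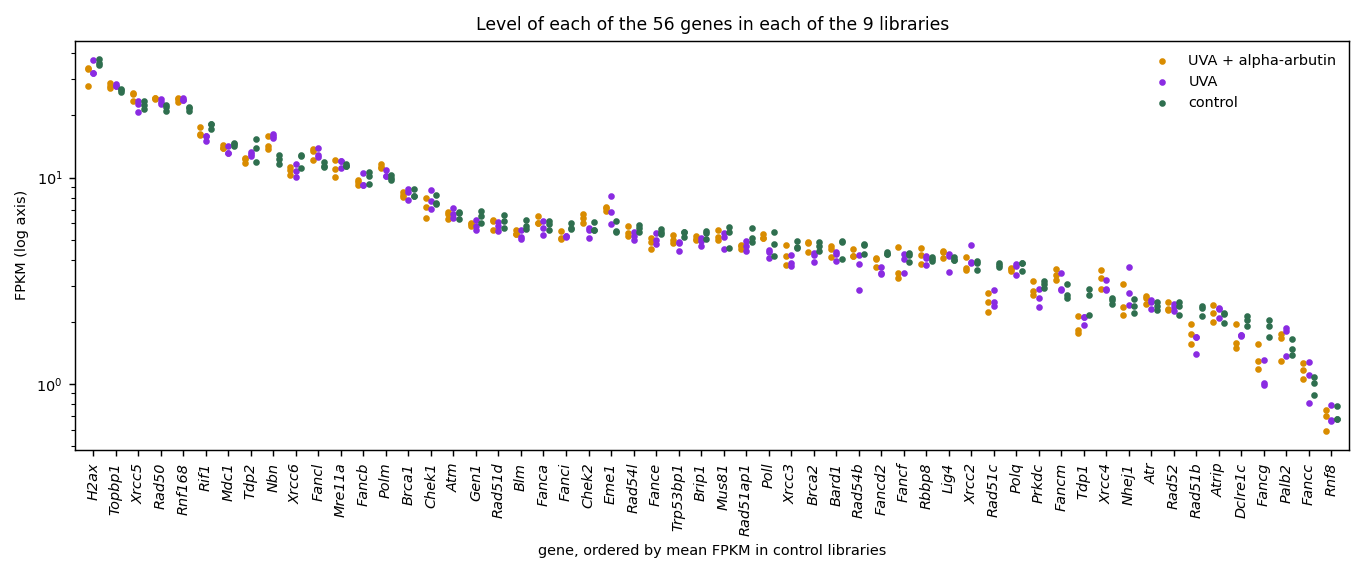
Deposited FPKM (log axis) of each of the 56 genes in each of the 9 libraries, with genes ordered from the highest to the lowest mean in control libraries; points are libraries, coloured by group. Levels span from H2ax, with a control mean of 36.1 FPKM, to Rnf8, with 0.713 FPKM, and for most genes the 3 groups lie on top of each other.

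UVA moved 13 of the 56 genes against control, 5 up and 8 down, by small amounts. The genes that rose were Nbn, Eme1, Fancl, Rnf168 and Rad50. Those that fell were Fancg, Rad51c, Rad51b, Tdp1, Rad54b, Fancd2, Rif1 and Trp53bp1. No gene was called among the damage kinases and their activators, the BRCA and mediator genes or the classical end-joining factors. Calls are from edgeR's quasi-likelihood test, with p adjusted by the Benjamini-Hochberg method over the 14151 genes tested and a threshold of 0.05, and changes are log2 fold changes ± standard error. In bulk RNA, fewer cells transcribing a gene and less of its RNA per cell cannot be told apart.

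The 13 called genes are 23.2% of the 56, against 29.3% of all tested genes, of which 14.7% were higher and 14.6% lower. At an unadjusted p below 0.05, 21 of the 56 genes passed (7 higher, 14 lower), which is 37.5% against 38.9% of all tested genes. UVA and control libraries did not overlap in 19 of the 56 (33.9%), against 42% of all tested genes. The share called was thus near or below the share across the transcriptome. The median log2 fold change of the 56 genes was -0.055, with 22 above 0 and 34 below 0, against a median of 0.003 for all tested genes. The median absolute change was 0.12 on the log2 scale, against 0.163. The 95% interval of the change lay within 1.5-fold in either direction for 52 of the 56 genes (92.9%), against 67% of all tested genes, and Fancg alone was past 1.5-fold. The count of 13 became 7 without control replicate 3. It was split into 3 higher and 8 lower by DESeq2, and into 4 higher and 12 lower where libraries were scaled by their totals alone.

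**Figure D2:**
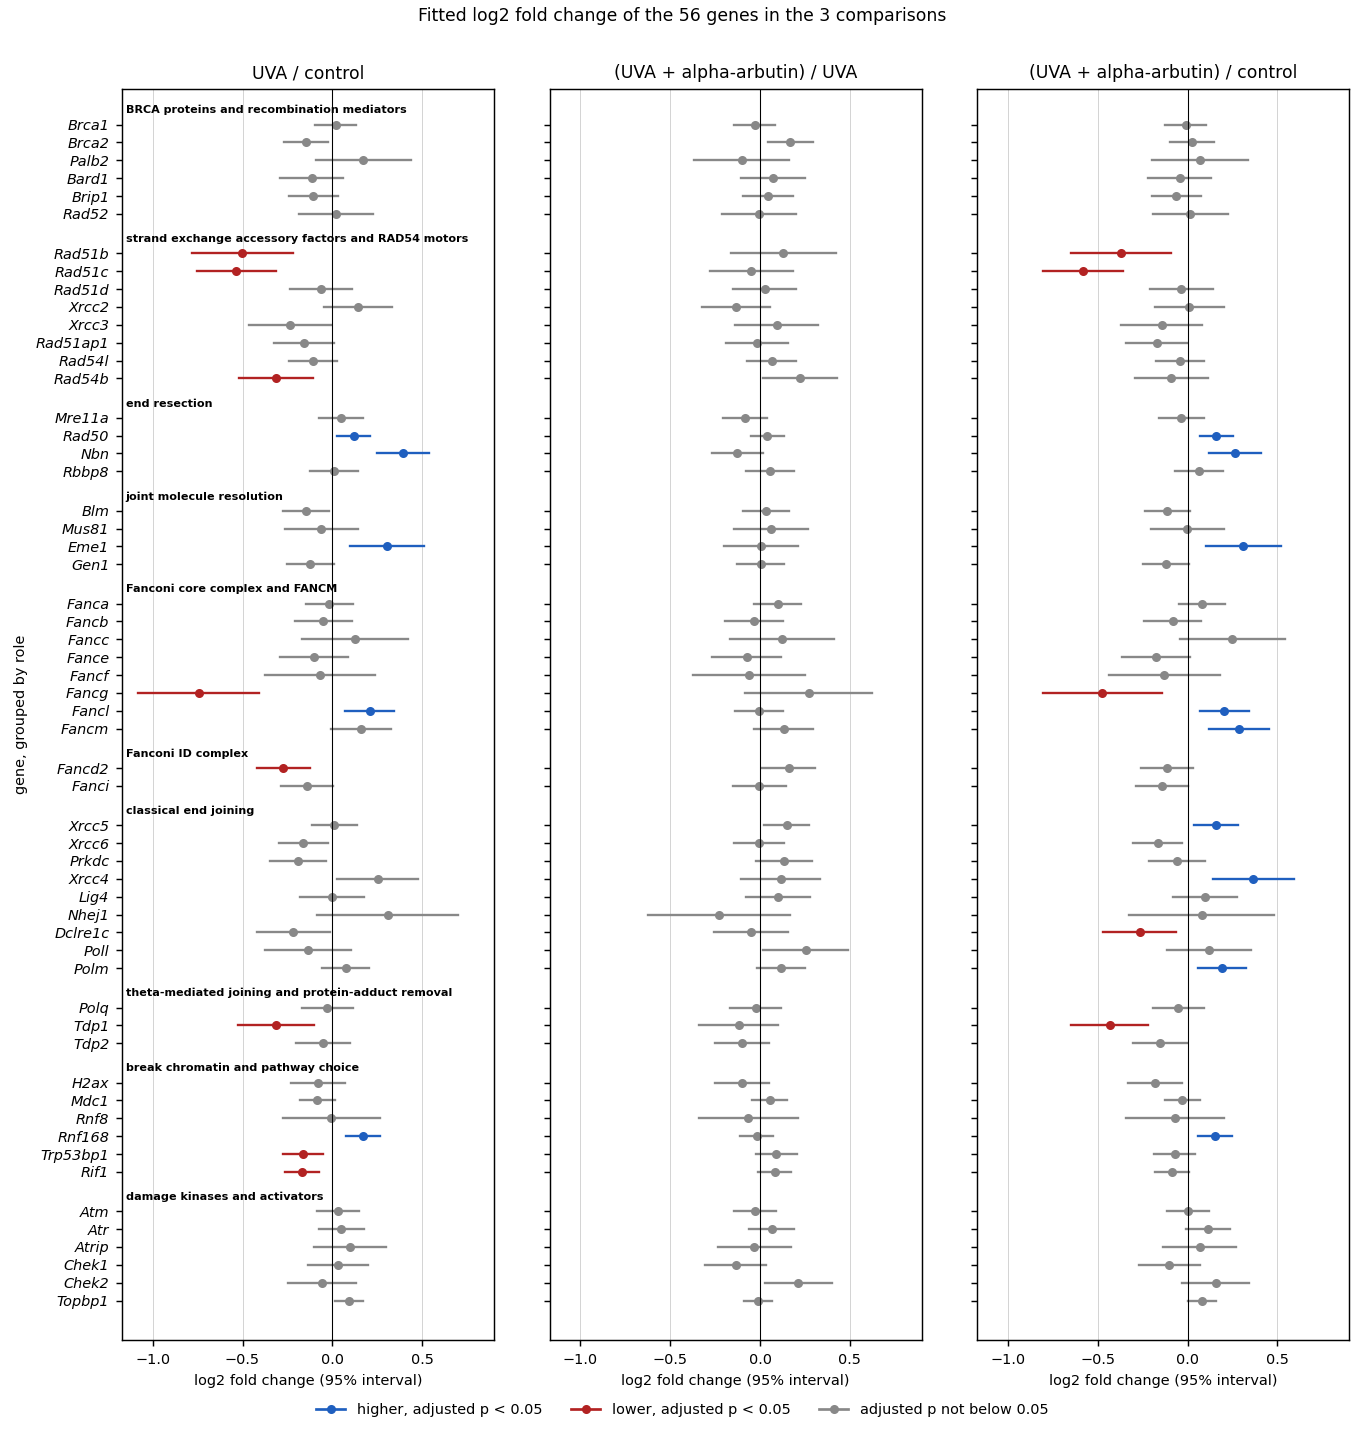
Fitted log2 fold change with its 95% interval for each of the 56 genes, grouped by role, in the comparisons UVA over control, co-treated over UVA and co-treated over control; blue and red mark genes called higher or lower at an adjusted p below 0.05. Calls appear in the outer panels, which share their control libraries, and the middle panel has 0.

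Of the 8 genes of strand exchange accessory factors and RAD54 motors, 3 fell after UVA and none rose (37.5% called, against 29.3% of all tested genes). The groups by role hold 2 to 9 genes each, and their counts are given as descriptions to be read against that share. The products of Rad51b, Rad51c, Rad51d, Xrcc2 and Xrcc3 form complexes that assist strand exchange in recombination, and Rad51c belongs to each of those complexes. Rad51c (ENSMUSG00000007646, chr11:87267471-87295780 on mm39, minus strand) had 2.23, 2.77 and 2.5 FPKM in co-treated libraries, 2.39, 2.87 and 2.49 FPKM in UVA libraries, and 3.67, 3.86 and 3.78 FPKM in control libraries. All co-treated and UVA libraries lay below all control libraries, and UVA lowered Rad51c by 30.9% (log2 fold change -0.53 ± 0.11, adjusted p = 0.0003). Rad51b (ENSMUSG00000059060, chr12:79344056-79861464 on mm39, plus strand) had 1.57, 1.74 and 1.95 FPKM in co-treated libraries, 1.69, 1.4 and 1.69 FPKM in UVA libraries, and 2.4, 2.13 and 2.33 FPKM in control libraries. Here too the control libraries stood above the other 6, with log2 fold change -0.50 ± 0.14, adjusted p = 0.00641 for UVA over control. Rad54b, encoding a DNA translocase of recombination, had 4.17, 4.16 and 4.49 FPKM in co-treated libraries, 4.22, 2.84 and 3.82 FPKM in UVA libraries, and 4.26, 4.69 and 4.77 FPKM in control libraries. UVA replicate 2 was the lowest of the 9 for Rad54b, and the gene fell (log2 fold change -0.31 ± 0.10, adjusted p = 0.018), a call lost without UVA replicate 2 (adjusted p = 0.171), control replicate 2 (adjusted p = 0.0567) or control replicate 3 (adjusted p = 0.0877). Rad54b overlaps Fsbp on the same strand and Gm11832 on the other, whose reads cannot be told apart from its own where exons coincide.

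Xrcc3, Rad51d and Xrcc2 did not pass the test. Xrcc3, the partner of Rad51c, had 3.79, 4.74 and 4.15 FPKM in co-treated libraries, 4.23, 3.86 and 3.75 FPKM in UVA libraries, and 4.63, 4.54 and 4.92 FPKM in control libraries. UVA libraries were below control libraries without overlap (log2 fold change -0.24 ± 0.11, adjusted p = 0.112). Rad51d had 6.14, 5.55 and 6.2 FPKM in co-treated libraries, 5.51, 5.86 and 6.09 FPKM in UVA libraries, and 6.15, 6.61 and 5.7 FPKM in control libraries, with overlapping groups (log2 fold change -0.06 ± 0.08, adjusted p = 0.634). Xrcc2 had 3.64, 4.14 and 3.58 FPKM in co-treated libraries, 3.9, 4.69 and 3.84 FPKM in UVA libraries, and 3.94, 3.86 and 3.57 FPKM in control libraries, also overlapping (log2 fold change 0.14 ± 0.09, adjusted p = 0.271). The ratio of Rad51c to Xrcc3 FPKM was 0.588, 0.584 and 0.602 in co-treated libraries, 0.565, 0.744 and 0.664 in UVA libraries, and 0.793, 0.85 and 0.768 in control libraries. That ratio was lower in all 6 irradiated libraries than in any control library, but it sets a called gene over an uncalled one and is not a separate result. The fitted changes of Rad51ap1 (-0.16), a further accessory factor, and Rad54l (-0.11), the other RAD54 motor gene, did not pass.

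Among the 4 end resection genes, Nbn and Rad50 rose after UVA. The MRN complex tethers ends and begins their resection, and NBN links it to ATM. Nbn (ENSMUSG00000028224, chr4:15957925-15992589 on mm39, plus strand) had 13.8, 15.9 and 14.2 FPKM in co-treated libraries, 15.9, 15.6 and 16.2 FPKM in UVA libraries, and 12.9, 11.6 and 12.3 FPKM in control libraries. Every irradiated library, with or without α-arbutin, was above every control library, and UVA raised Nbn by 31.2% (log2 fold change 0.39 ± 0.07, adjusted p = 8.27e-05). Rad50 had 24, 24.2 and 24.3 FPKM in co-treated libraries, 23.4, 22.8 and 24 FPKM in UVA libraries, and 20.9, 22 and 22.4 FPKM in control libraries. The UVA and control libraries of Rad50 were separate but close, with log2 fold change 0.12 ± 0.04, adjusted p = 0.0472. That call was lost by DESeq2 (adjusted p = 0.0615), with RLE scaling (0.0512), with library totals alone (0.0858), with no filter on low counts (0.136), in a fit of the 2 groups alone (0.0505), and without UVA replicate 1 (0.0877), UVA replicate 3 (0.151), control replicate 1 (0.219), control replicate 2 (0.0979) or control replicate 3 (0.054). Mre11a, the nuclease of the complex, had 10.1, 11.1 and 12.2 FPKM in co-treated libraries, 12.1, 12 and 11.1 FPKM in UVA libraries, and 11.4, 11.6 and 11.4 FPKM in control libraries, with overlapping groups and log2 fold change 0.05 ± 0.06, adjusted p = 0.603. The ratio of Nbn to Mre11a FPKM was 1.36, 1.44 and 1.17 in co-treated libraries, 1.31, 1.3 and 1.46 in UVA libraries, and 1.12, 1 and 1.08 in control libraries. It was higher in every irradiated library, but sets a called gene over an uncalled one and is not a separate result. The ratio of Rad50 to Mre11a was 1.93, 1.9 and 2.16 in UVA libraries and 1.83, 1.89 and 1.97 in control libraries, with overlap. Apart from Rad51c to Xrcc3, the other ratios taken did not separate all irradiated from all control libraries (Brca1 to Bard1, Brca1 to Trp53bp1, Xrcc5 to Xrcc6, Fancd2 to Fanci, Mus81 to Eme1). Rbbp8, encoding CtIP, which promotes resection, had a change of 0.01 on the log2 scale.

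Of the 4 genes that resolve joint molecules, Eme1, the regulatory partner of the MUS81 endonuclease, was called higher. Eme1 had 7.11, 7.17 and 6.88 FPKM in co-treated libraries, 5.94, 6.8 and 8.18 FPKM in UVA libraries, and 5.54, 6.15 and 5.48 FPKM in control libraries. UVA replicate 3 was the highest of all libraries and UVA replicate 1 lay within the control range, with log2 fold change 0.30 ± 0.10, adjusted p = 0.0237. The Eme1 call was lost by DESeq2 (adjusted p = 0.0583) and without UVA replicate 3 (0.266), control replicate 1 (0.0825) or control replicate 3 (0.0991). Eme1 overlaps Mrpl27 on the other strand, which also rose (log2 fold change 0.40 ± 0.09, adjusted p = 0.00096), and Lrrc59. The sources used here do not say whether counting used strand, so reads of these genes cannot be told apart where exons coincide. Mus81 itself had 5.13, 5.59 and 4.99 FPKM in co-treated libraries, 5.13, 5.4 and 4.49 FPKM in UVA libraries, and 4.57, 5.43 and 5.76 FPKM in control libraries, with overlapping groups and log2 fold change -0.06 ± 0.10, adjusted p = 0.691. Blm, a helicase that dissolves crossed strands (-0.15), and Gen1, a junction resolvase (-0.12), did not pass, although Blm was called lower with library totals alone (adjusted p = 0.0482) and without UVA replicate 1 (0.0334).

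The Fanconi core complex genes moved in both directions. The core complex is a ubiquitin ligase, of which FANCL is the catalytic subunit and FANCG an adaptor, and it acts on FANCD2 and FANCI. Fancg (ENSMUSG00000028453, chr4:43002343-43010506 on mm39, minus strand) had 1.57, 1.3 and 1.18 FPKM in co-treated libraries, 1.01, 0.99 and 1.31 FPKM in UVA libraries, and 2.05, 1.92 and 1.69 FPKM in control libraries. All 6 irradiated libraries were below all control libraries, and the decrease after UVA had the greatest size among the 56 genes (log2 fold change -0.74 ± 0.16, adjusted p = 0.000881). Its counts were low, at 98, 85 and 81 in co-treated, 70, 61 and 100 in UVA, and 133, 129 and 134 in control libraries, and the 95% interval of its log2 change ran from -1.08 to -0.41. Fancl rose, with 12.2, 13.8 and 13.5 FPKM in co-treated libraries, 12.9, 12.6 and 13.9 FPKM in UVA libraries, and 11.4, 11.9 and 11.3 FPKM in control libraries and log2 fold change 0.21 ± 0.07, adjusted p = 0.0176. That call was lost without UVA replicate 3 (adjusted p = 0.106), control replicate 1 (0.0589) or control replicate 3 (0.073). Fancl overlaps Vrk2 on the other strand, which fell (-0.23 ± 0.08, adjusted p = 0.0379).

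Fancm, encoding the translocase that anchors the core complex to DNA, had 3.62, 3.36 and 3.19 FPKM in co-treated libraries, 2.89, 2.86 and 3.46 FPKM in UVA libraries, and 3.05, 2.71 and 2.62 FPKM in control libraries. The UVA and control groups overlapped (log2 fold change 0.16 ± 0.08, adjusted p = 0.156). The remaining core genes had changes from -0.10 (Fance) to 0.13 (Fancc), none called, with Fanca, Fancb and Fancf between them. Fancd2 fell and its partner Fanci did not pass. Fancd2 (ENSMUSG00000034023, chr6:113508643-113573978 on mm39, plus strand) had 4.1, 4.04 and 3.69 FPKM in co-treated libraries, 3.69, 3.42 and 3.44 FPKM in UVA libraries, and 4.28, 4.35 and 4.25 FPKM in control libraries. Control libraries were the highest 3 of the 9 and UVA libraries were all below them, with log2 fold change -0.27 ± 0.07, adjusted p = 0.00428. Fanci had 5.02, 5.09 and 5.51 FPKM in co-treated libraries, 5.22, 5.19 and 5.17 FPKM in UVA libraries, and 6.02, 5.63 and 5.71 FPKM in control libraries, with UVA below control in every library and log2 fold change -0.14 ± 0.07, adjusted p = 0.14.

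In the chromatin response that decides between repair routes, Rnf168 rose while Rif1 and Trp53bp1 fell. RNF168 ubiquitinates histone H2A, a mark read by 53BP1, and RIF1 acts with 53BP1 to hold back resection. Rnf168 (ENSMUSG00000014074, chr16:32096277-32120252 on mm39, plus strand) had 24.2, 23.3 and 24.1 FPKM in co-treated libraries, 23.9, 23.9 and 24.4 FPKM in UVA libraries, and 22, 21.8 and 21 FPKM in control libraries. The irradiated libraries were all above the control libraries, by a small margin (log2 fold change 0.17 ± 0.05, adjusted p = 0.00521). Rif1 (ENSMUSG00000036202, chr2:51962844-52012395 on mm39, plus strand) had 17.6, 16.3 and 16.1 FPKM in co-treated libraries, 16, 16 and 15.1 FPKM in UVA libraries, and 18.1, 17.1 and 18.2 FPKM in control libraries. UVA libraries were below control libraries, with co-treated libraries between and overlapping the control range (log2 fold change -0.17 ± 0.05, adjusted p = 0.00536). Trp53bp1, encoding 53BP1, had 4.84, 5.01 and 5.27 FPKM in co-treated libraries, 4.84, 4.87 and 4.43 FPKM in UVA libraries, and 5.14, 5.43 and 5.43 FPKM in control libraries. It fell by a similar small amount (log2 fold change -0.16 ± 0.06, adjusted p = 0.0261), a call lost without UVA replicate 3 (adjusted p = 0.162), control replicate 2 (0.088) or control replicate 3 (0.106). Trp53bp1 overlaps Tubgcp4 on the other strand, which also fell (-0.25 ± 0.07, adjusted p = 0.00705).

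The other break chromatin genes were not called. H2ax had 33.9, 33.6 and 27.7 FPKM in co-treated libraries, 32.1, 32.1 and 37.1 FPKM in UVA libraries, and 35.8, 35.1 and 37.4 FPKM in control libraries. UVA libraries overlapped both other groups, with log2 fold change -0.08 ± 0.07, adjusted p = 0.449 for UVA over control. Co-treated libraries, with replicate 3 the lowest, were all below control libraries (-0.18 ± 0.07, adjusted p = 0.0687, not called). Mdc1, which reads phosphorylated H2AX, changed by -0.08 on the log2 scale, and Rnf8 by -0.01, neither past the threshold. Among the 3 genes of theta-mediated joining and protein-adduct removal, Tdp1 fell. TDP1 removes topoisomerase I trapped at a broken strand. Tdp1 had 1.82, 2.13 and 1.77 FPKM in co-treated libraries, 2.11, 1.94 and 2.12 FPKM in UVA libraries, and 2.17, 2.88 and 2.69 FPKM in control libraries. Control replicate 1 was nearer to the irradiated libraries than to the other control libraries, with log2 fold change -0.32 ± 0.10, adjusted p = 0.0204. The Tdp1 call was lost without UVA replicate 2 (adjusted p = 0.0784), control replicate 2 (0.143) or control replicate 3 (0.0916). Polq, encoding polymerase theta (-0.03), and Tdp2, which removes topoisomerase II (-0.05), did not pass.

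**Figure D3:**
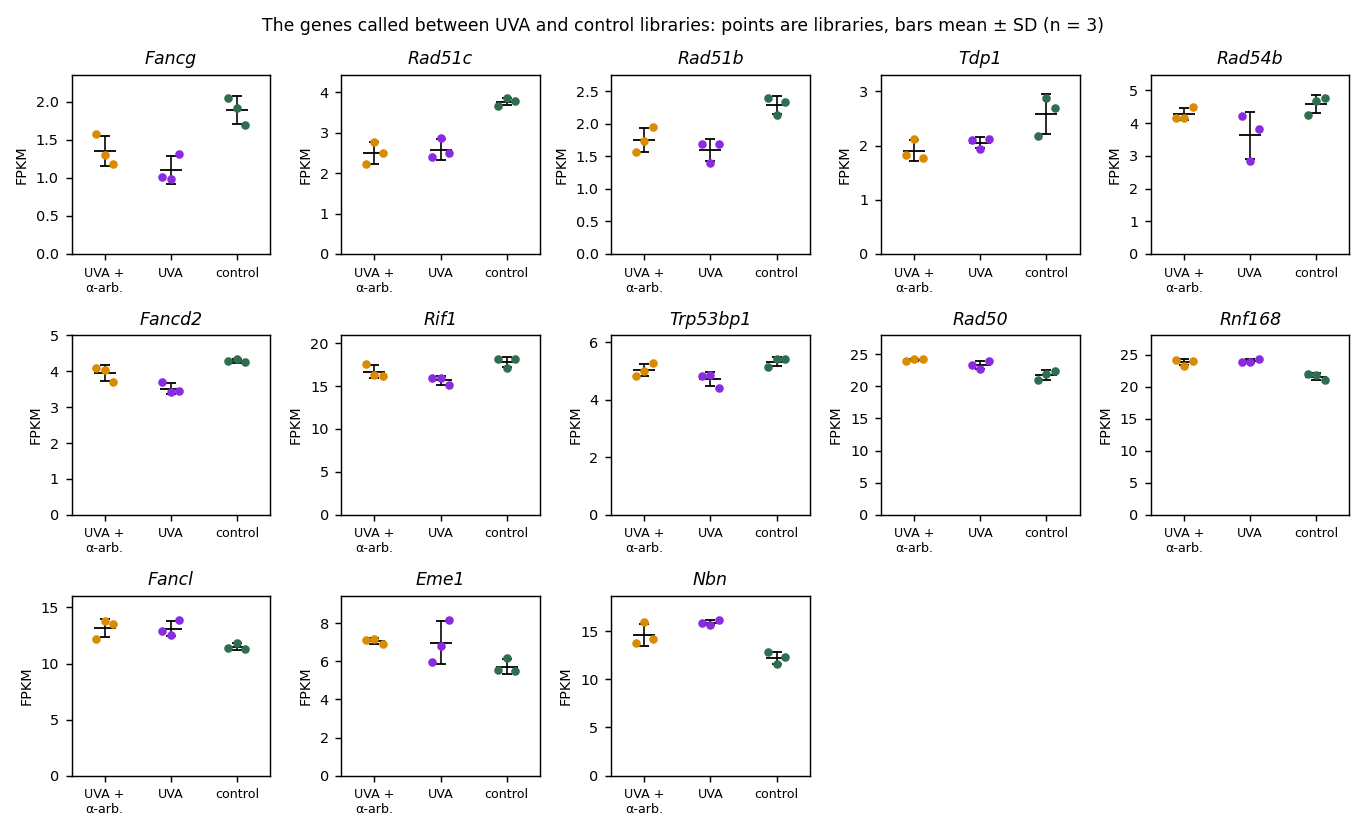
Deposited FPKM of the 13 genes called between UVA and control libraries, from the most lowered (Fancg) to the most raised (Nbn); points are libraries, bars mean ± SD (n = 3), each axis starts at 0, and α-arb. stands for α-arbutin. Rad51c and Fancg show all 6 irradiated libraries under the control libraries and Nbn shows them above.

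The damage kinase genes were not called. ATM answers breaks, ATR answers exposed single strands, and CHK1 and CHK2 carry their signals. Atm had 6.33, 6.68 and 6.79 FPKM in co-treated libraries, 7.1, 6.35 and 6.66 FPKM in UVA libraries, and 6.77, 6.28 and 6.85 FPKM in control libraries. Its groups overlapped, with log2 fold change 0.03 ± 0.06, adjusted p = 0.741 and a 95% interval from -0.09 to 0.15. Atr had 2.44, 2.62 and 2.66 FPKM in co-treated libraries, 2.51, 2.54 and 2.3 FPKM in UVA libraries, and 2.28, 2.5 and 2.4 FPKM in control libraries, with overlap, log2 fold change 0.05 ± 0.06, adjusted p = 0.577 and an interval from -0.07 to 0.17. Chek1 had 7.93, 6.35 and 7.24 FPKM in co-treated libraries, 8.73, 7.04 and 7.68 FPKM in UVA libraries, and 7.56, 8.2 and 7.49 FPKM in control libraries, with overlap, log2 fold change 0.03 ± 0.08, adjusted p = 0.823 and an interval from -0.14 to 0.20. Chek2 had 6.01, 6.37 and 6.64 FPKM in co-treated libraries, 5.68, 5.6 and 5.08 FPKM in UVA libraries, and 5.57, 6.06 and 5.57 FPKM in control libraries. UVA and control libraries of Chek2 overlapped (log2 fold change -0.06 ± 0.09, adjusted p = 0.692, interval from -0.24 to 0.13). All 4 intervals lay within 1.5-fold in either direction. Of the activators, Topbp1 was at 0.09 and Atrip, the partner of ATR, at 0.10, neither past the threshold. Topbp1 was called higher with upper-quartile scaling (adjusted p = 0.0495).

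None of the 9 classical end-joining genes was called between UVA and control. Prkdc, encoding the catalytic subunit of DNA-PK, had 2.83, 2.7 and 3.17 FPKM in co-treated libraries, 2.62, 2.36 and 2.89 FPKM in UVA libraries, and 3.17, 3.05 and 2.92 FPKM in control libraries. UVA libraries were all below control libraries, with log2 fold change -0.19 ± 0.08, adjusted p = 0.0551. Prkdc passed without UVA replicate 3 (adjusted p = 0.0147), with library totals alone (0.0391), with a filter at a mean of 50 counts (0.0465) and in a fit of the 2 groups alone (0.0431). Xrcc5 had 23.6, 25.5 and 25.7 FPKM in co-treated libraries, 23.6, 22.8 and 20.9 FPKM in UVA libraries, and 23.5, 21.5 and 22.4 FPKM in control libraries, with overlapping UVA and control groups (log2 fold change 0.01 ± 0.06, adjusted p = 0.913). Its partner Xrcc6, encoding Ku70, changed by -0.16 and did not pass (adjusted p = 0.0691), but it was called lower with library totals alone (adjusted p = 0.0459), without UVA replicate 2 (0.0286) and without control replicate 1 (0.0206). The ligase gene Lig4 was at 0.00, its scaffold Xrcc4 at 0.25 and the accessory factor Nhej1 at 0.31, the last with a wide interval from -0.09 to 0.70 on 670 counts summed over the 9 libraries. The nuclease gene Dclre1c, encoding Artemis, was at -0.22, and the gap-filling polymerase genes Poll and Polm at -0.14 and 0.07.

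None of the 6 genes of BRCA proteins and recombination mediators was called. BRCA1 and BRCA2 stand at the centre of this step, and PALB2 joins them. Brca1 had 8.19, 8.04 and 8.51 FPKM in co-treated libraries, 8.82, 7.77 and 8.53 FPKM in UVA libraries, and 8.81, 8.12 and 8.18 FPKM in control libraries. The 3 groups covered the same range, with log2 fold change 0.02 ± 0.06, adjusted p = 0.848 and a 95% interval from -0.10 to 0.13 for UVA over control. Brca2 had 4.84, 4.36 and 4.87 FPKM in co-treated libraries, 4.24, 3.89 and 4.31 FPKM in UVA libraries, and 4.67, 4.87 and 4.42 FPKM in control libraries. UVA libraries were the lowest 3, with log2 fold change -0.15 ± 0.06, adjusted p = 0.0662. Brca2 passed where libraries were scaled by their totals alone (adjusted p = 0.0424). Palb2 (0.17), Bard1, the partner of BRCA1 (-0.12), Brip1, a helicase that binds BRCA1 (-0.11), and Rad52, which anneals strands (0.02), did not pass.

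None of the 56 genes was called between co-treated and UVA libraries. The count was 0 by edgeR and 0 by DESeq2, on a background of 5 called genes, 0.0353% of all tested genes (0.0283% higher and 0.00707% lower). At an unadjusted p below 0.05, 6 of the 56 genes passed (10.7%, all higher in co-treated libraries), against 6.76% of all tested genes, and DESeq2 had 2. Co-treated and UVA libraries did not overlap in 6 of the 56 genes (10.7%), against 10.8% of all tested genes. The median log2 fold change was 0.017, against 0.000 for all tested genes, and 54 of the 56 intervals (96.4%) lay within 1.5-fold, against 74.9%. For those 54 genes a difference of more than 1.5-fold between co-treated and UVA libraries lay outside the interval.

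The 6 genes were Brca2 (log2 fold change 0.17 ± 0.06, adjusted p = 0.627), Chek2 (log2 fold change 0.21 ± 0.09, adjusted p = 0.699), Fancd2 (log2 fold change 0.16 ± 0.07, adjusted p = 0.709), Rad54b (log2 fold change 0.22 ± 0.10, adjusted p = 0.709), Xrcc5 (log2 fold change 0.15 ± 0.06, adjusted p = 0.686) and Poll (log2 fold change 0.25 ± 0.12, adjusted p = 0.709), and none passes the correction for multiple testing. Poll had 5.09, 5.31 and 5.1 FPKM in co-treated libraries, 4.48, 4.38 and 4.08 FPKM in UVA libraries, and 5.46, 4.15 and 4.76 FPKM in control libraries, and the co-treated libraries lay above the UVA libraries but inside the control range. For Brca2 and Chek2, given above, co-treated libraries were also all above UVA libraries. The genes with the clearest changes after UVA had intervals around 0 here: Nbn was at -0.13 ± 0.07 (adjusted p = 0.787), Rad51c at -0.05 ± 0.11 (adjusted p = 0.959), Rad51b at 0.13 ± 0.14 (adjusted p = 0.904) and Fancg at 0.27 ± 0.17 (adjusted p = 0.824). The 95% interval of the Fancg difference, from -0.08 to 0.62, still holds changes over 1.5-fold. Rnf168 was at -0.02 ± 0.05 (adjusted p = 0.96) and Rif1 at 0.08 ± 0.05 (adjusted p = 0.791).

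Set against control, co-treated cells had 14 of the 56 genes called, 9 higher and 5 lower. This comparison uses the same control libraries as UVA against control, so their values are given side by side and not as independent results. The 14 are 25% of the 56, against 25.8% of all tested genes (13% higher and 12.9% lower), and at an unadjusted p below 0.05 there were 19 (33.9%), against 35.8%. Groups did not overlap in 21 genes (37.5%), against 39.7%. The median log2 fold change was -0.035, against 0.002. Leaving out 1 library at a time gave 7 (without control replicate 1 or control replicate 3), 8 (without co-treated replicate 2 or co-treated replicate 3), 10 or 12. The count was 8 by DESeq2 (6 higher, 2 lower) and 9 with no filter on low counts, and upper-quartile scaling gave 9 higher and 3 lower. Uncalled here but passing under an alternative were Xrcc6 (in a fit of the 2 groups alone, adjusted p = 0.0432, and without control replicate 1, 0.0204), H2ax (with no filter on low counts, 0.0463, in a fit of the 2 groups alone, 0.0415, and without co-treated replicate 1, 0.0333, or co-treated replicate 2, 0.049) and Tdp2 (without control replicate 3, 0.0153), all lower.

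Rad51c (log2 fold change -0.58 ± 0.11, adjusted p = 0.00014) and Tdp1 (log2 fold change -0.43 ± 0.10, adjusted p = 0.00229) fell in co-treated cells whichever library was left out, against -0.53 ± 0.11 and -0.32 ± 0.10 for UVA over control. Rad51b (log2 fold change -0.37 ± 0.14, adjusted p = 0.0453, -0.50 ± 0.14 in UVA cells) and Fancg (log2 fold change -0.47 ± 0.16, adjusted p = 0.0299, -0.74 ± 0.16 in UVA cells) were lower too. Nbn (log2 fold change 0.26 ± 0.07, adjusted p = 0.00604), Rad50 (log2 fold change 0.16 ± 0.04, adjusted p = 0.00886), Eme1 (log2 fold change 0.31 ± 0.10, adjusted p = 0.0245), Fancl (log2 fold change 0.20 ± 0.07, adjusted p = 0.0225) and Rnf168 (log2 fold change 0.15 ± 0.05, adjusted p = 0.0145) were higher, where UVA over control had 0.39 ± 0.07, 0.12 ± 0.04, 0.30 ± 0.10, 0.21 ± 0.07 and 0.17 ± 0.05. A further 5 genes were called here and not between UVA and control: Fancm (log2 fold change 0.29 ± 0.08, adjusted p = 0.00881), Xrcc4 (log2 fold change 0.37 ± 0.11, adjusted p = 0.0133), Polm (log2 fold change 0.19 ± 0.06, adjusted p = 0.0277), Xrcc5 (log2 fold change 0.16 ± 0.06, adjusted p = 0.04999) and Dclre1c (log2 fold change -0.27 ± 0.10, adjusted p = 0.0469). Conversely, Fancd2 (log2 fold change -0.11 ± 0.07, adjusted p = 0.26) and Rif1 (-0.09 ± 0.05, adjusted p = 0.169) were called between UVA and control and not here. The same held for Trp53bp1 (-0.07 ± 0.06, adjusted p = 0.377) and Rad54b (-0.09 ± 0.10, adjusted p = 0.552). For none of the genes called in only 1 of these comparisons was co-treated against UVA called, so a difference between the treatments is not shown.

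Xrcc4, Polm and Dclre1c act in end joining around the ligase. Xrcc4, its scaffold, had 3.57, 2.9 and 3.27 FPKM in co-treated libraries, 3.2, 2.88 and 2.86 FPKM in UVA libraries, and 2.43, 2.55 and 2.62 FPKM in control libraries. Every co-treated and UVA library was above every control library for Xrcc4. Polm, a gap-filling polymerase gene, had 11.6, 11.1 and 11.3 FPKM in co-treated libraries, 10.2, 10.2 and 10.9 FPKM in UVA libraries, and 10.3, 9.75 and 9.96 FPKM in control libraries, with co-treated libraries the highest. Dclre1c, encoding the end-trimming nuclease Artemis, had 1.95, 1.49 and 1.58 FPKM in co-treated libraries, 1.71, 1.73 and 1.73 FPKM in UVA libraries, and 2.13, 1.9 and 2.05 FPKM in control libraries, with co-treated replicate 1 inside the control range. DESeq2 lost Rad51b (adjusted p = 0.119), Fancg (0.0799), Dclre1c (0.104), Xrcc5 (0.0924), Polm (0.0583) and Eme1 (0.0566). With no filter on low counts, Fancl (0.0509), Rnf168 (0.0548), Polm (0.0922), Xrcc5 (0.106), Dclre1c (0.0563) and Rad51b (0.0736) lost their calls. Upper-quartile scaling lost Dclre1c (0.0508) and Rad51b (0.0512). Xrcc5 was lost with RLE scaling (0.0523) and library totals alone (0.0629). Calls were also lost when 1 library was left out. Nbn lost its call without co-treated replicate 2 (adjusted p = 0.0675), Rad50 without control replicate 1 (0.072) and Fancm without control replicate 3 (0.0699). Rnf168 lost it without co-treated replicate 3 (0.0508) or control replicate 3 (0.085), and Xrcc4 without co-treated replicate 1 (0.0755) or control replicate 1 (0.0548). Fancl lost it without co-treated replicate 2 (0.111), co-treated replicate 3 (0.0861), control replicate 1 (0.0707) or control replicate 3 (0.0873). Polm did so without co-treated replicate 1 (0.0798), co-treated replicate 3 (0.0623), control replicate 2 (0.105) or control replicate 3 (0.078). Xrcc5 did so without co-treated replicate 2 (0.153), co-treated replicate 3 (0.171), control replicate 1 (0.0518), control replicate 2 (0.202) or control replicate 3 (0.122). Dclre1c did so without co-treated replicate 2 (0.225), co-treated replicate 3 (0.154), control replicate 1 (0.155) or control replicate 3 (0.126). Fancg lost it without co-treated replicate 2 (0.0825), co-treated replicate 3 (0.13), control replicate 1 (0.112) or control replicate 2 (0.0768). Eme1 lost it without co-treated replicate 2 (0.0699), control replicate 1 (0.0838) or control replicate 3 (0.102). Rad51b lost it without co-treated replicate 1 (0.154), co-treated replicate 2 (0.102), control replicate 1 (0.126), control replicate 2 (0.0536) or control replicate 3 (0.122).

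Other genes of the pathway, 82 listed by name, were looked at for the same comparisons, and 80 were tested. Between UVA and control, 6 were higher and 4 lower (12.5%, against 29.3% of all tested genes), with a median log2 fold change of 0.034. The lowered genes were Spidr, a scaffold that binds BLM (-0.49 ± 0.06, adjusted p = 2.08e-07), Rpa1, the large subunit of the protein that coats single-stranded DNA (-0.30 ± 0.04, adjusted p = 4.86e-07), Tti1, a co-chaperone that stabilises ATM and ATR (-0.39 ± 0.08, adjusted p = 0.000606), and Smc6, of the SMC5-SMC6 complex (-0.13 ± 0.04, adjusted p = 0.0229). Rpa1 averaged 45.9 ± 0.659 FPKM in co-treated, 45.1 ± 0.937 FPKM in UVA and 56.1 ± 0.0874 FPKM in control libraries (SD, n = 3 each). Spidr averaged 6.15 ± 0.208 FPKM in co-treated, 5.88 ± 0.146 FPKM in UVA and 8.35 ± 0.262 FPKM in control libraries (SD, n = 3 each), so for both genes the irradiated groups were below control by more than the spread. The raised genes were Nsmce2 (0.27 ± 0.06, adjusted p = 0.0015) and Nsmce4a (0.18 ± 0.06, adjusted p = 0.0304), of the same complex, Hrob, which recruits a recombination helicase (0.35 ± 0.10, adjusted p = 0.0071), Rnf169, which competes for the RNF168 mark (0.23 ± 0.07, adjusted p = 0.0143), Hus1, of the checkpoint clamp formed with RAD9 and RAD1 (0.19 ± 0.06, adjusted p = 0.0161), and Clspn, which bridges ATR to CHK1 (0.15 ± 0.06, adjusted p = 0.0437).

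Between co-treated and UVA cells, none of these 80 genes was called and 7 had an unadjusted p below 0.05 (4 higher, 3 lower), 8.75% against 6.76%. Co-treated against control, 9 were higher and 5 lower (17.5%, against 25.8% of all tested genes). Those with the smallest p were Rpa1 (-0.28 ± 0.04, adjusted p = 1.45e-06), Spidr (-0.43 ± 0.06, adjusted p = 1.94e-06), Rnf169 (0.36 ± 0.07, adjusted p = 0.000298), the resection nuclease gene Dna2 (0.34 ± 0.07, adjusted p = 0.000719), and Rmi2, of the complex with BLM (0.62 ± 0.15, adjusted p = 0.00322). Hus1, Wee1, Hrob, Cdc25a, Etaa1 and Recql5 were also higher, at 0.17 to 0.33 on the log2 scale, and Babam2, of the complex that carries BRCA1 to ubiquitinated chromatin, was lower at -0.19.

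Many of these genes are transcribed with the cell cycle, so cell cycle markers are given beside them. The 20 S phase genes summed to 2448, 2594 and 2609 CPM in co-treated libraries, 2598, 2651 and 2634 CPM in UVA libraries, and 2487, 2521 and 2485 CPM in control libraries. UVA libraries were all above control libraries, and 6 of the 20 genes were called higher and 2 lower (40%, against 29.3% of all tested genes). Among those called higher were Ccne2 (log2 fold change 0.40 ± 0.06, adjusted p = 1.89e-05) and Rrm2 (0.28 ± 0.04, adjusted p = 1.01e-05), and those called lower were Gins2 (-0.31 ± 0.10, adjusted p = 0.0195) and Prim1 (-0.20 ± 0.06, adjusted p = 0.0123). The 20 mitosis genes summed to 4221 to 4385 CPM in co-treated libraries, 4175 to 4350 CPM in UVA libraries and 4210 to 4335 CPM in control libraries, with 4 called higher and 4 lower (40%). Of 19 tested p53 target genes, 9 were higher and 4 lower after UVA (68.4%). Among those raised were Cdkn1a at 0.98 ± 0.07 (adjusted p = 1.89e-11) and Mdm2 at 0.86 ± 0.06 (adjusted p = 8.03e-12). Over the 19 genes the log2 fold change ran from -0.774 to 0.983, with a median of 0.162. The part of cell cycle position and of p53 activity in the values of the repair genes was not tested.

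**Figure D4:**
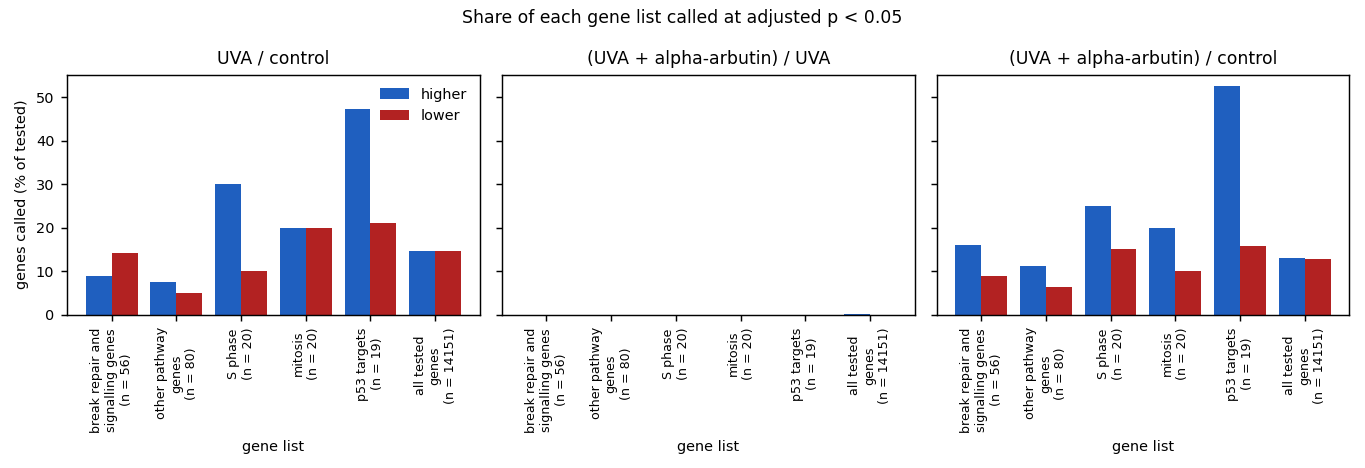
Share of each gene list called higher (blue) or lower (red) at an adjusted p below 0.05 in the 3 comparisons, as a percentage of the tested genes of the list. The 56 repair genes stand at 23.2% in total for UVA over control and 25% for co-treated over control, against 29.3% and 25.8% of all tested genes, and at 0% for co-treated over UVA.

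Library totals, in units of 1e6 counts, were 16.3 to 20.86. Fibroblast markers were present, with Col1a2 averaging 1078 CPM in co-treated, 1047 CPM in UVA and 2391 CPM in control libraries and Vim averaging 3401 CPM in co-treated, 3590 CPM in UVA and 2721 CPM in control libraries, while Lum had group means of 0.172 CPM or less and Fap of 0.0900 CPM or less. The 12 fibroblast markers summed to 6509 to 6757 CPM in co-treated, 6807 to 7074 CPM in UVA and 8649 to 8914 CPM in control libraries, and of the 10 tested, 2 were called higher and 6 lower between UVA and control. Immune, epithelial, endothelial and muscle marker sums were at most 10.7 CPM in any library, with Epcam, Cd3e, Cldn5 and Myod1 at 0 throughout. The 6 adipocyte markers summed to 15.9 to 19.0 CPM in co-treated, 14.2 to 17.3 CPM in UVA and 31.6 to 33.6 CPM in control libraries, nearly all of it Lpl, with Adipoq, Plin1 and Cebpa at or near 0; their part in the results was not tested. Of the 56 repair genes, 18 overlap another counted gene, all on the other strand and 1 also on the same strand.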

How the data were processed

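Per the file headers, the deposited table gives for each gene and library a raw count and an FPKM value, with mm39 coordinates, strand and exonic size (bases, an other kind of value that the authors deposited and that was used for lengths only). The deposited FPKM was recomputed from count, exonic size and total (510219 of 510219 values within 0.01). Per the submitters' processing notes, without roles, the tools were HTSeq 0.6.1, HISAT2 2.2.1, cutadapt 1.9.1 and bcl2fastq 2.20.0.422, and the build mm39. The sources used here give neither annotation release nor strandedness. Control columns carry the prefix NC, taken as control because the other prefixes match the other titles. The titles and columns of the UVA libraries read MOCK. Their treatment label gives UVA, and that label was followed here.

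Counts as deposited were tested in R 4.3.3 with edgeR 4.0.16 (filterByExpr, TMM factors 0.992 to 1.007, quasi-likelihood fit and two-sided F-test) over all 9 libraries on group alone. Of 56691 genes, 14151 were tested, and p-values were adjusted by Benjamini-Hochberg over all of them in each comparison. Standard errors were derived from this test, as the absolute log2 fold change over the square root of the F statistic, and 95% intervals were built on them. The common biological coefficient of variation of the fit was 0.0471. Groups were called non-overlapping on TMM-scaled CPM. Overlapping genes were listed where they held at least 90 counts over the 9 libraries. The fit was tested on simulated data, with changes set in the UVA libraries for 200 genes drawn from all 14151 tested, at any level. Of genes with a true log2 change of -0.5, 58.8% were called, and of those at 0.5, 76.6%. At -1 and 1 the shares were 76.5% and 90.2%. Smaller changes were not simulated. DESeq2 1.42.0, other scalings and filters, a fit of 2 groups alone, a replicate block and leaving out each library were tried.

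The 56 genes, their roles and the other gene lists were chosen with earlier results of these data known. Described in full were genes called in any comparison, the damage kinase genes, Brca1, Brca2, H2ax, Rad51b, Rad51c, Rad51d, Xrcc2 and Xrcc3, and of the other pathway genes the called ones with the smallest p, at most 12 a comparison. Promoter sequences are from RefSeq (GRCm38.p6). Some listed genes are not reported by name here.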

Additional observations from a re-analysis of the deposited data

How the results depend on the processing

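Of 1218 alternative values of the 29 genes described in full, 1130 stayed on their side of the threshold, 78 kept their direction but no longer passed (56 of them with 1 library left out) and 10 passed only under the alternative. No called value reversed. Of the 1130, 39 were uncalled values within 1 standard error of 0 that changed sign, and the others kept their direction. The count of the 56 genes called for UVA against control, 13, ran from 7 to 13 with 1 library left out. That for co-treated against control, 14, was 8 by DESeq2, 9 with no filter on low counts, and 7 to 12 with 1 library left out. That for co-treated against UVA was 0 under all alternatives run. The 5 genes of the whole table called for co-treated against UVA became 29 with no filter on low counts, 19 with the replicate block and 1 to 22 with 1 library left out. The share of these calls that were higher, 80%, was 69.0% with no filter; the counts are too few to read a direction from. The cause was not tested. Deviations of libraries with the same replicate number in their titles correlated at -0.011 to 0.115, over 0.1 in 1 of 9 pairs. Between co-treated and UVA libraries the same-numbered pairs stood at 0.092, 0.049 and 0.115. Differently numbered pairs of these groups ran from -0.121 to 0.033, so each library correlated best with its own number there. Same-numbered pairs with control libraries ran from -0.011 to 0.037, and not every library correlated best with its own number. Whether the numbers mark a shared culture or batch was not tested. With the replicate block, 15 of the 56 genes were called for co-treated against control, 15 for UVA against control and 0 for co-treated against UVA. The calls gained were Prkdc (adjusted p = 0.0318) and Xrcc6 (0.036) for UVA against control and Xrcc6 (0.0332) for co-treated against control, all lower. Low counts limit the precision for genes such as Fancg, Nhej1 and Rnf8.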
